A study of Mus musculus with 7 samples.

Results

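The genes described here are 9 members of the mitochondrial cell death pathway: the anti-apoptotic genes Bcl2, Bcl2l1 and Mcl1, the pore-forming genes Bax and Bak1, the BH3-only genes Bcl2l11 and Bid, and the apoptosome genes Apaf1 and Casp9. They were taken by name, without regard to their values, as every probe set that the platform annotation gives to exactly 1 of them. This found 30 probe sets of 8 genes, out of 18193 genes with such a probe set. The annotation used here gives no probe set to Bax, which is therefore not analysed here. The cells were granule neuron precursors, the dividing cells that produce the granule neurons of the cerebellum, sorted by flow cytometry from mice of the genotype Math1-Cre/Ptc-loxp/Nestin-CFP. Both fractions carry all 3 alleles: Math1-Cre, driven by regulatory sequence of a transcription factor gene of this lineage, the floxed allele of Ptch1, which encodes the inhibitory Hedgehog receptor, and Nestin-CFP, the reporter used for sorting. RNA of the Nestin-positive fraction was measured on 4 arrays (replicates 1, 3, 4 and 5) and that of the Nestin-negative fraction on 3 arrays (replicates 1, 4 and 5), without culture or treatment. The sample labels give postnatal day 7 and call the tissue medulloblastoma, whereas the series-level design text puts the sort at postnatal day 4. No label says that the samples came from separate animals, so p-values measure the spread between these samples, which may be technical.

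In this pathway, Bcl2, Bcl-xL (the product of Bcl2l1) and Mcl1 hold the effectors Bax and Bak in check at the mitochondrial outer membrane, and BH3-only proteins such as Bim (the product of Bcl2l11) and Bid tip that balance towards pore formation. Cytochrome c released through the pore joins Apaf1 into the apoptosome, which activates the initiator caspase Casp9, which in turn cleaves the executioner caspases. In the developing cerebellum the balance of these proteins sets whether precursors and newborn granule neurons survive. It is regulated largely at the level of protein, by binding, cleavage and turnover, which an array does not measure.

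Each gene's value is the MAS5 signal of its brightest probe set, an intensity on a linear scale. A probe set was tested if its signal was at or above the array median, below which signal was treated as dim, on at least 3 of the 7 arrays. Of the 30 probe sets of these genes 20 met this, and each of the 8 genes kept at least 1. All 8 brightest probe sets lay at or above the array median on all 7 arrays. The groups were compared with limma over all 11089 genes tested, with Benjamini-Hochberg adjustment.

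As a check of the sort, Nes, which encodes Nestin itself, had signals of 478 to 829 on Nestin-positive and 174 to 217 on Nestin-negative arrays. Ptch1 had signals of 12780 to 13180 on Nestin-positive and 10588 to 11606 on Nestin-negative arrays, and no source used here says whether that probe set lies in the part that Cre removes. Signal in bulk RNA does not tell fewer cells of a type from less RNA per cell. The 10 listed markers of granule neuron precursors were at or above the array median on every array of both fractions. The 10 measured microglia and macrophage markers had a summed signal of 359 to 1193 on Nestin-positive and 2196 to 8192 on Nestin-negative arrays. Those at or above the median throughout a fraction numbered 0 of 10 in Nestin-positive and 9 of 10 in Nestin-negative cells. A marker could pass the filter of at least 3 arrays through the 3 Nestin-negative arrays alone, and 10 of the 12 listed microglia markers passed. The sums, these counts and the list values below may thus rest on markers kept for their Nestin-negative signal, and are no test of the fractions. The median log2 change (Nestin-positive minus Nestin-negative) was -2.77 for these microglia markers. It was -2.27 for 7 of 10 listed markers of pericytes and smooth muscle and -1.55 for 5 of 7 of meningeal fibroblasts. For 7 of 10 of endothelium it was -0.46, and for 8 of astrocytes -0.14. On Nestin-positive arrays mean log2 signals relative to all arrays were -1.81 to 0.067 (pericytes), -1.53 to 0.061 (fibroblasts) and -1.22 to 0.71 (endothelium). On Nestin-negative arrays they were -0.30 to 2.14, -0.51 to 1.62 and -0.83 to 0.82. The fractions thus overlapped in each of these lists. In the fit with the replicate number as a block, which leaves out Nestin-positive replicate 3, the astrocyte median was -0.58. That fit called 4 of the 8 markers lower (limma), where it called 723 of 11089 genes lower. Without the block 0 of the 8 were called. The mean log2 signal of the astrocyte list relative to all arrays was -1.25, 0.77, -0.070 and 0.091 on Nestin-positive replicates 1, 3, 4 and 5, against -1.06, 0.82 and 0.68 on Nestin-negative replicates 1, 4 and 5.

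None of the 8 genes passed the adjusted threshold of 0.05 without the replicate number in the fit, where 83 of 11089 genes did, or 0.748%. At an unadjusted p under 0.05, 1 of the 8 passed, Casp9, where 14.4% of all genes did. The changes of 4 genes were positive and those of 4 were negative, with a median log2 change of 0.0072, against -0.026 over all genes tested. The count of 83 was 10 and 45 without Nestin-positive replicates 1 and 3, 5 and 1 without Nestin-negative replicates 1 and 5, and 0 without Nestin-positive replicate 5 or without Nestin-negative replicate 4. That of the 8 genes was 0 each time, with Casp9 the gene at an unadjusted p under 0.05. When the replicate number was entered as a block, in a fit on the 3 pairs that leaves out Nestin-positive replicate 3, 1 of the 8 passed, again Casp9, where 10.1% of all genes did. Without the pair of replicate 1 the blocked fit called 728 in place of 1122 genes at the adjusted threshold, and Casp9 was not among them. Before adjustment 2 of the 8 had a blocked p under 0.05, Casp9 and Bcl2l1, where 22.2% of all genes did.

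Casp9, the initiator caspase of the apoptosome, had the largest change of the 8 and was lower in Nestin-positive cells. Its signals were 465, 399, 563 and 547 on Nestin-positive replicates 1, 3, 4 and 5, against 698, 698 and 721 on Nestin-negative replicates 1, 4 and 5. Every Nestin-positive array thus lay below every Nestin-negative array, and the Nestin-negative arrays lay close together. Casp9 was the one gene of the 8 whose groups did not overlap, where 15.0% of all genes had groups that did not. The means were 494 ± 76.5 (SD, n = 4) in the Nestin-positive fraction and 706 ± 13.4 (SD, n = 3) in the Nestin-negative fraction, which is a log2 change of -0.53 ± 0.15 (SE), with a 95% interval of -0.87 to -0.19. The adjusted p was 0.140 (limma), and 0.101 to 0.345 with each array left out. By exact permutation of the fraction labels (35 splits, two-sided), p was 0.0286, the lowest that 4 against 3 arrays can give. That test exchanges all arrays freely, and exchanging labels within the 3 pairs gave an exact two-sided p of 0.25, the lowest that 3 pairs allow.

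Within the pairs, Casp9 was lower in the Nestin-positive sample by log2 differences of -0.58, -0.31 and -0.40 for replicates 1, 4 and 5. In the blocked fit it fell by 0.43 ± 0.12 (SE) on the log2 scale, and its level was 1.35-fold lower (limma, adjusted p = 0.0299). This call rests on pairs 1 and 5: the adjusted p was 0.230 without pair 1, 0.0194 without pair 4 and 0.0947 without pair 5. Fitted over all 23585 probe sets in place of 11089 genes, the blocked adjusted p of the same probe set was 0.0836, with an unadjusted p of 0.00511 against 0.00242 and an SE of 0.13 against 0.12. The other 2 Casp9 probe sets were below the array median on every array, with means of 34.3 and 8.09 in Nestin-positive and 44.8 and 7.66 in Nestin-negative cells. The change in Casp9 therefore comes from a single probe set.

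**Figure D1:**
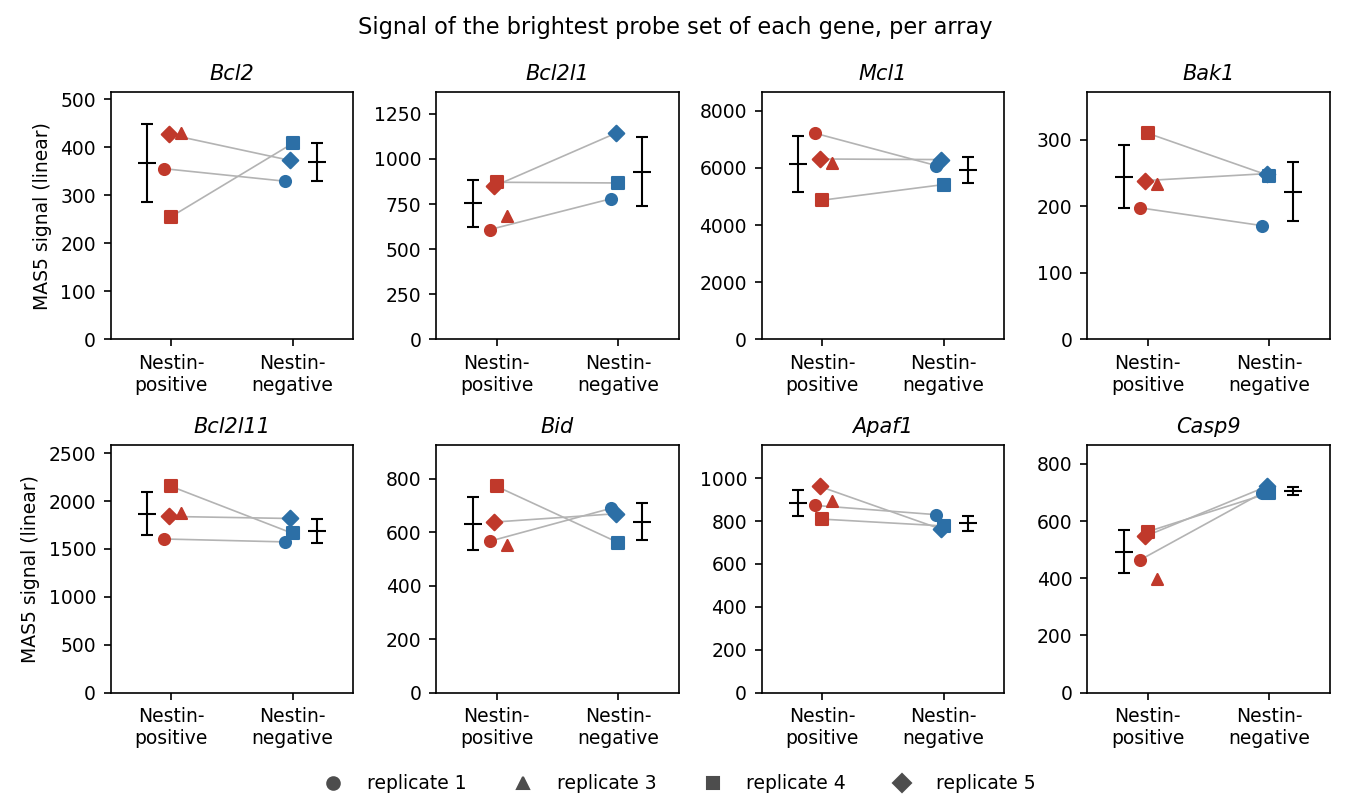
MAS5 signal (linear scale, y axis from 0) of the brightest probe set of each of the 8 genes, with Nestin-positive arrays in red on the left and Nestin-negative arrays in blue on the right of each panel. Marker shapes give the replicate number, grey lines join arrays of the same number, and bars are the mean ± SD (n = 4 and 3). In the Casp9 panel the groups are apart (399 to 563 against 698 to 721), and in the other 7 panels they overlap.

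Apaf1, the scaffold on which Casp9 is activated, did not follow Casp9. Its signals were 873, 894, 809 and 961 on Nestin-positive arrays, against 830, 777 and 762 on Nestin-negative arrays. Only Nestin-positive replicate 4 lay within the Nestin-negative range, and the Nestin-positive sample was the higher of each pair. The means were 884 ± 62.7 (SD, n = 4) in the Nestin-positive fraction and 790 ± 35.6 (SD, n = 3) in the Nestin-negative fraction, a log2 change of 0.16 ± 0.12 (SE). This did not pass (limma, adjusted p = 0.592, and 0.498 with the block), with a 95% interval of -0.10 to 0.42. Apaf1 varied least of the 8 genes, its highest array being 1.26 times its lowest, against 1.81 times for Casp9.

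Several sets of markers differed between the fractions along with Casp9. All 14 measured genes of granule neuron differentiation had negative changes, and their mean log2 signal relative to all arrays lay between -0.48 and -0.18 on Nestin-positive and between 0.33 and 0.58 on Nestin-negative arrays. All 14 measured mitosis genes had positive changes, with list means of 0.11 to 0.28 on Nestin-positive and -0.53 to -0.11 on Nestin-negative arrays. The microglia and macrophage list lay between -2.04 and -0.081 on Nestin-positive and between 0.81 and 2.62 on Nestin-negative arrays. Among Nestin-positive arrays, Casp9 and the differentiation list were both lower on replicates 1 and 3 than on 4 and 5, and so was the microglia list. This order was not particular to them. The mitosis list, of opposite change between the fractions, was at 0.115, 0.187, 0.281 and 0.188 on Nestin-positive replicates 1, 3, 4 and 5. The lists of precursors, pericytes, fibroblasts and endothelium were also lower on replicates 1 and 3, and the astrocyte list was not. Among Nestin-negative replicates 1, 4 and 5 Casp9 was at 698, 698 and 721. Over the same replicates the microglia list was at 0.81, 1.36 and 2.62 and the differentiation list at 0.58, 0.40 and 0.33. The mitosis list was at -0.53, -0.11 and -0.13. The part of these cell types in the Casp9 difference was not tested.

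**Figure D2:**
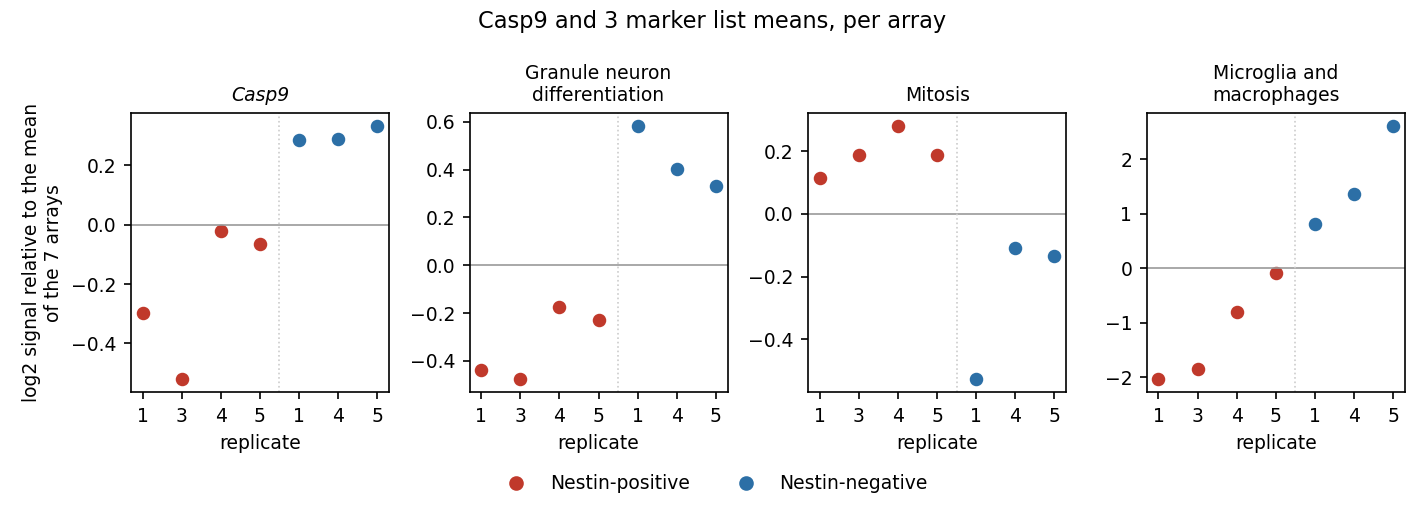
Log2 signal of Casp9 and the mean log2 signal of 3 marker lists (14, 14 and 10 measured genes), each relative to its own mean over the 7 arrays (y axis), by replicate number (x axis). Nestin-positive arrays are red and stand left of the dotted line, Nestin-negative arrays are blue. In all 4 panels the fractions are apart, in the mitosis panel with the Nestin-positive arrays higher, and the y axes differ between panels.

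Among the anti-apoptotic genes, Bcl2l1, which encodes Bcl-xL, had the largest difference, and its groups overlapped. Its signals were 608, 684, 870 and 849 on Nestin-positive arrays, against 779, 867 and 1142 on Nestin-negative arrays. The Nestin-positive replicates 1 and 3 were the lowest and Nestin-negative replicate 5 the highest of the 7. The means were 753 ± 128 (SD, n = 4) in the Nestin-positive fraction and 929 ± 189 (SD, n = 3) in the Nestin-negative fraction, a log2 change of -0.30 ± 0.18 (SE) with a 95% interval of -0.70 to 0.10 (limma, adjusted p = 0.501). With the block the change was -0.26 ± 0.12 (SE, adjusted p = 0.212). Without Nestin-negative replicate 5 it was -0.14 without the block. The pair differences were -0.36, 0.0065 and -0.43 for replicates 1, 4 and 5. In the blocked fit without pair 4, chosen after seeing the data, Bcl2l1 was called lower, where 1453 of 11089 genes were called (limma). The other 3 Bcl2l1 probe sets were dim on at least 5 of the 7 arrays and were not tested.

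Mcl1, an anti-apoptotic protein of rapid turnover, was measured by 6 probe sets, all at or above the array median on all arrays. The brightest had signals of 7213, 6156, 4871 and 6311 on Nestin-positive arrays, against 6080, 5417 and 6292 on Nestin-negative arrays. The Nestin-positive arrays held both the highest and the lowest of the 7 values. The means were 6138 ± 964 (SD, n = 4) in the Nestin-positive fraction and 5930 ± 456 (SD, n = 3) in the Nestin-negative fraction, a log2 change of 0.039 ± 0.14 (SE, limma, adjusted p = 0.930). The other 5 probe sets had log2 changes of -0.096 to -0.0046, so that 1 of the 6 was higher and 5 were lower in Nestin-positive cells, with adjusted p between 0.915 and 0.998 over all probe sets. The 95% interval of the brightest was -0.27 to 0.35.

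Bcl2, which gives the family its name, was measured by 5 probe sets, of which the brightest had signals of 355, 429, 256 and 427 on Nestin-positive arrays, against 329, 408 and 372 on Nestin-negative arrays. Nestin-positive replicate 4 was the lowest of the 7 arrays, and replicates 3 and 5 the highest. The means were 367 ± 81.5 (SD, n = 4) in the Nestin-positive fraction and 370 ± 39.4 (SD, n = 3) in the Nestin-negative fraction, a log2 change of -0.037 ± 0.20 (SE, limma, adjusted p = 0.961, 95% interval -0.49 to 0.42). The other 4 probe sets were dimmer, with means of 78.2 to 121 in Nestin-positive and 79.9 to 107 in Nestin-negative cells, and their log2 changes lay between -0.076 and 0.32. The widest interval among the 20 probe sets belonged to a Bcl2 probe set whose signals followed the replicate number and not the fraction. It read 250, 123, 42.2 and 67.2 on Nestin-positive arrays, against 203, 41.9 and 55.0 on Nestin-negative arrays, so that replicate 1 was highest in both fractions.

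Bak1, which encodes the pore-forming effector Bak, had signals of 198, 233, 310 and 239 on Nestin-positive arrays, against 171, 246 and 249 on Nestin-negative arrays. Replicate 1 was the lowest array of either fraction. The means were 245 ± 47.0 (SD, n = 4) in the Nestin-positive fraction and 222 ± 44.2 (SD, n = 3) in the Nestin-negative fraction, a log2 change of 0.14 ± 0.21 (SE, limma, adjusted p = 0.813). Its interval, -0.34 to 0.62 at 95%, was the widest of the 8 genes. The second Bak1 probe set was below the array median on all 7 arrays.

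Bcl2l11, which encodes the BH3-only protein Bim, was measured by 4 tested probe sets, and all 4 had positive changes. The brightest had signals of 1604, 1876, 2152 and 1840 on Nestin-positive arrays, against 1574, 1663 and 1818 on Nestin-negative arrays. Nestin-positive replicates 3, 4 and 5 lay above all Nestin-negative arrays, and replicate 1 among them. The means were 1868 ± 225 (SD, n = 4) in the Nestin-positive fraction and 1685 ± 124 (SD, n = 3) in the Nestin-negative fraction, a log2 change of 0.14 ± 0.13 (SE), and the other 3 tested probe sets gave 0.14, 0.11 and 0.072. Another Bcl2l11 probe set, at or above the array median on 2 of the 7 arrays and not tested, had a log2 difference of -0.28. None passed: for the gene the adjusted p was 0.673 (limma), and 0.518 with the block, with a 95% interval of -0.14 to 0.43. Probe sets of a gene share the same RNA samples and are no replicates of each other.

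Bid, a BH3-only protein that caspase-8 cleaves to link death receptors to mitochondria, had signals of 566, 553, 770 and 637 on Nestin-positive arrays, against 689, 561 and 669 on Nestin-negative arrays. Both the lowest and the highest of the 7 arrays were Nestin-positive. The means were 632 ± 99.6 (SD, n = 4) in the Nestin-positive fraction and 639 ± 68.7 (SD, n = 3) in the Nestin-negative fraction, a log2 change of -0.024 ± 0.16 (SE, limma, adjusted p = 0.966, 95% interval -0.37 to 0.32). Its pair differences had opposite signs, -0.28, 0.46 and -0.069 for replicates 1, 4 and 5. The other 2 Bid probe sets were at or above the array median on 2 and 1 of the 7 arrays and were not tested.

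**Figure D3:**
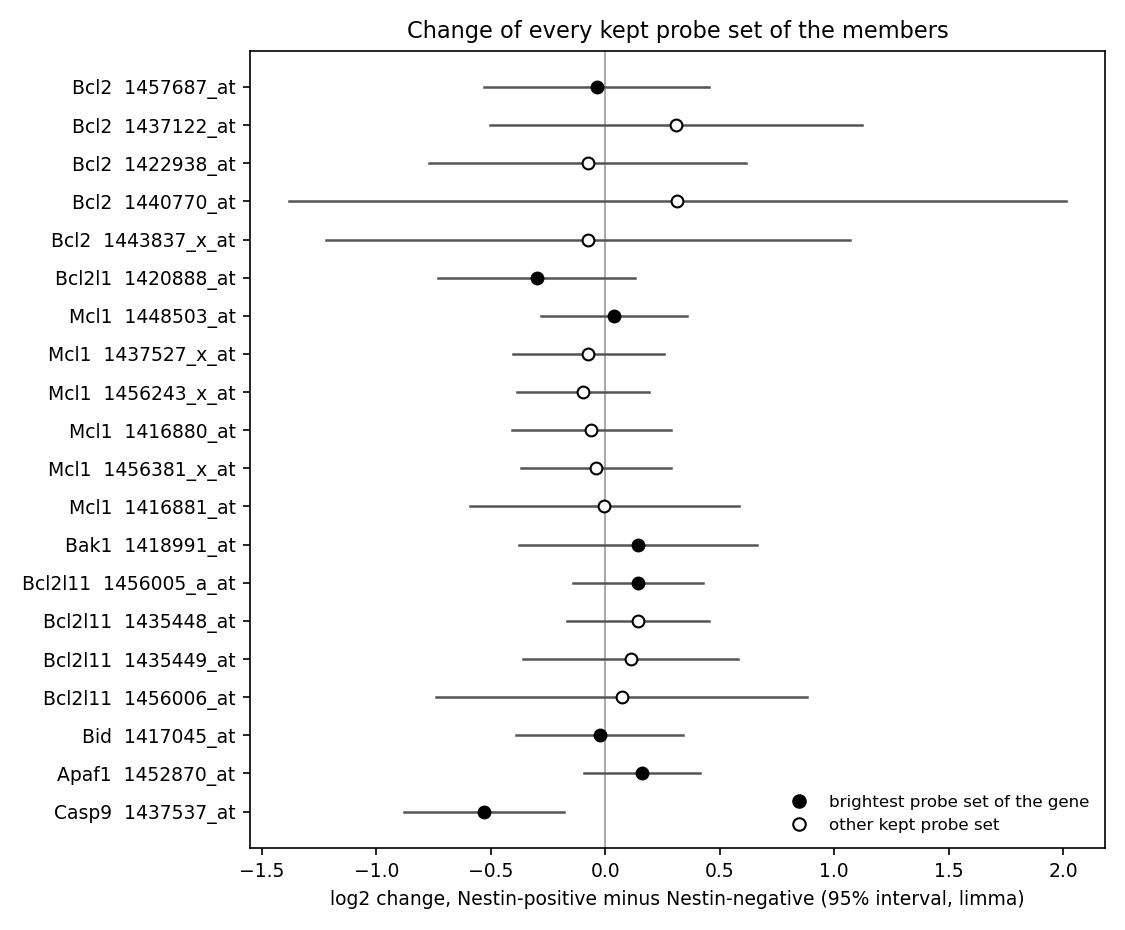
Log2 change, Nestin-positive minus Nestin-negative, of the 20 tested probe sets (points) with 95% intervals from the fit over all 23585 probe sets (x axis), grouped by gene (y axis). Filled points are each gene's brightest probe set, and open points the others. Only the interval of the Casp9 probe set does not reach 0, and the widest belongs to a Bcl2 probe set.

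Of the 20 probe sets, 9 had positive and 11 negative changes. Fitted over all 23585 probe sets, limma called 0 of the 20 and 0 of the 23585, where 2283 probe sets, or 9.68%, and 1 of the 20 had an unadjusted p under 0.05. With the replicate block 1049 probe sets passed, or 4.45%, and 0 of the 20, with 1 of them at a blocked unadjusted p under 0.05, where 16.2% of all probe sets stood.

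The genes whose profile over the 7 arrays was nearest to that of Casp9 were Nudt18, Rimkla and Rab33a. Likeness was the root mean square difference of log2 values after centring each gene on its own mean, which was 0.050 for Nudt18, 0.052 for Rimkla and 0.055 for Rab33a, against a median of 0.35 over all genes. The log2 changes of these 3 genes were -0.56, -0.50 and -0.48. Nearest to Bcl2l1 were Praf2, Comtd1 and Evl, at 0.057, 0.061 and 0.069, against a median of 0.33, with log2 changes of -0.26, -0.27 and -0.22. Genes picked as nearest over the same 7 arrays have small differences and like log2 changes by that choice, so neither is a test.

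The rest of the pathway was read from lists that overlap with none of the 9 genes. Limma called 0 genes of these lists without the block. At an unadjusted p under 0.05 there were 3 of 8 further BH3-only and other pro-apoptotic Bcl2 genes, 3 of 5 death receptor and adaptor genes and 0 in the other 4 lists, where 14.4% of all genes stood. With the block limma called 2 of the 8 further pro-apoptotic genes, 1 of 5 in the caspase list and 1 of 5 in the death receptor list. It called 0 in the remaining lists, where it called 10.1% of all genes. The 8 further pro-apoptotic genes had a median log2 change of -0.079, against -0.026 over all genes tested, with 3 positive and 5 negative. With the block this median turned sign, to 0.024, against -0.013 over all genes. Bmf, a BH3-only protein that binds the dynein light chain, had signals of 541, 468, 532 and 411 on Nestin-positive arrays, against 684, 609 and 789 on Nestin-negative arrays. Bnip3, a BH3-like protein of mitochondrial turnover, had 938, 898, 1127 and 1035 on Nestin-positive arrays, against 1344, 1496 and 1260 on Nestin-negative arrays. For both genes every Nestin-positive array was below every Nestin-negative array, where 15.0% of all genes had groups that did not overlap.

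Bmf had a log2 change of -0.51 ± 0.15 (SE, limma, adjusted p = 0.158) and fell by 0.49 ± 0.14 with the block (adjusted p = 0.0310). The blocked adjusted p of Bmf was 0.476 without pair 5. Bnip3 had a log2 change of -0.45 ± 0.13 (SE, limma, adjusted p = 0.140) and fell by 0.40 ± 0.11 with the block (adjusted p = 0.0213), which was 0.174 without pair 1. Bcl2l13, a mitochondrial Bcl2-like protein, was higher on all Nestin-positive than on all Nestin-negative arrays, where the groups of 15.0% of all genes did not overlap. Its means were 2522 ± 192 (SD, n = 4) in the Nestin-positive fraction and 2091 ± 54.9 (SD, n = 3) in the Nestin-negative fraction. Bcl2l13 did not pass (limma, adjusted p = 0.291, and 0.0578 with the block). Bbc3, which encodes the p53-induced BH3-only protein Puma, had means of 172 ± 35.4 in Nestin-positive and 194 ± 1.57 in Nestin-negative cells (limma, adjusted p = 0.717). The single other anti-apoptotic gene measured, Bcl2l2, had a log2 change of -0.044 ± 0.16 (SE).

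Of the other caspases and their regulator Cflar, 5 genes were measured, 4 with positive changes and a list median of 0.39. The median was 0.17 without Nestin-negative replicate 1 and 0.030 over 8 genes with dim probe sets included. Casp6, an executioner caspase, had signals of 480, 481, 617 and 539 on Nestin-positive arrays, against 290, 462 and 472 on Nestin-negative arrays. Every Nestin-positive array was above every Nestin-negative array, Nestin-positive replicates 1 and 3 by a small margin over Nestin-negative replicates 4 and 5. Over all genes, 15.0% had groups that did not overlap. The log2 change of Casp6 was 0.40 ± 0.20 (SE, limma, adjusted p = 0.391), and it rose by 0.45 ± 0.14 with the block (adjusted p = 0.0457). The blocked value of Casp6 was 0.393 for the adjusted p without pair 1 and 0.0643 without pair 4. Casp8, the initiator caspase of death receptors, had a log2 change of 0.39 ± 0.28 and its inhibitor Cflar of 0.39 ± 0.21 (SE), and neither passed. Without Nestin-negative replicate 1 the log2 change was 0.17 for Casp6, 0.049 for Casp8 and 0.30 for Cflar. Casp2, an initiator caspase outside the apoptosome, had a log2 change of 0.085 ± 0.11 (SE).

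**Figure D4:**
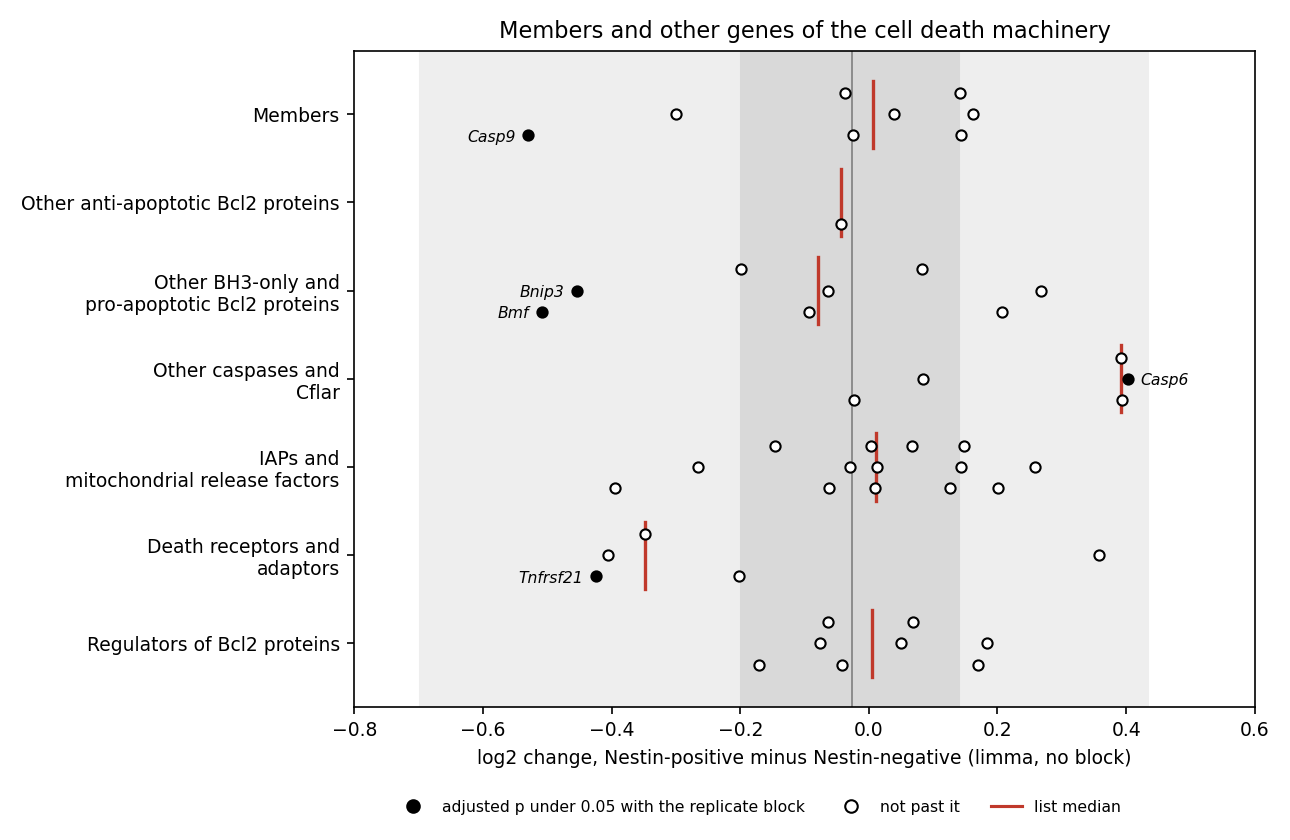
Log2 change, Nestin-positive minus Nestin-negative (x axis), of the 8 genes and of 6 further lists of the cell death machinery (y axis), each point a gene, with the list median in red. Dark and light grey bands run between the percentiles 25 and 75 and the percentiles 5 and 95 of all genes tested, and the grey line is their median of -0.026. Filled points (Casp9, Bmf, Bnip3, Casp6 and Tnfrsf21) had an adjusted p under 0.05 with the replicate block, where 10.1% of all genes did. No point had one without the block.

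Among death receptors, Tnfrsf21, a receptor with an intracellular death domain, had signals of 983, 846, 1045 and 1004 on Nestin-positive arrays, against 1263, 1226 and 1409 on Nestin-negative arrays. Its groups did not overlap, where 15.0% of all genes had groups that did not. The log2 change of Tnfrsf21 was -0.42 ± 0.12 (SE, limma, adjusted p = 0.148). With the block Tnfrsf21 fell by 0.36 ± 0.11 (adjusted p = 0.0422), which was 0.149 without pair 1 and 0.306 without pair 5. Tnfrsf1a and Ngfr, which encode the receptors for TNF and for neurotrophins, had log2 changes of -0.35 ± 0.13 and -0.41 ± 0.17 (SE), and their groups did not overlap either, with adjusted p of 0.266 and 0.305. Fadd, the adaptor that recruits Casp8, had a log2 change of 0.36 ± 0.19 (SE, adjusted p = 0.443).

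Inhibitors of apoptosis and proteins released from mitochondria had a median log2 change of 0.011 over 14 measured genes, 9 positive and 5 negative, and 0 passed with or without the block. Birc5, a chromosomal passenger protein of mitosis that is also counted among the inhibitors of apoptosis, had the smallest p of these. Its signals were 4475, 4241, 5179 and 4766 on Nestin-positive arrays, against 3442, 4098 and 4174 on Nestin-negative arrays (limma, adjusted p = 0.357, and 0.0575 with the block). Xiap, the direct inhibitor of Casp9, had means of 2768 ± 360 (SD, n = 4) in the Nestin-positive fraction and 2491 ± 81.2 (SD, n = 3) in the Nestin-negative fraction, and Diablo, which antagonises Xiap, a log2 change of 0.0093 ± 0.11 (SE). Cycs, which encodes somatic cytochrome c, had a log2 change of 0.012 ± 0.19 (SE). Endog, a mitochondrial nuclease, had a log2 change of -0.40 ± 0.19 (SE, limma, adjusted p = 0.371), with a lower Nestin-positive value in 3 of 3 pairs. Vdac1, a channel of the mitochondrial outer membrane, and Birc2, an inhibitor of apoptosis with ubiquitin ligase activity, had log2 changes of -0.27 ± 0.15 and 0.20 ± 0.14 (SE). The 8 measured regulators of Bcl2 proteins, among them Huwe1 and Fbxw7, ubiquitin ligase components that act on Mcl1, had a median of 0.0044, and 0 passed with or without the block. The log2 changes of the 4 with the smallest p were 0.18 ± 0.12 for Fbxw7, 0.17 ± 0.12 for Huwe1, -0.17 ± 0.14 for Dynll2, a dynein light chain that binds Bmf, and -0.076 ± 0.10 for Tmbim6, an endoplasmic reticulum protein that counters Bax (SE).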

How the data were processed

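Biotin-labelled RNA of sorted cells was measured on Affymetrix Mouse Genome 430 2.0 arrays, per the labels. The authors deposited 1 linear intensity per probe set and array, which the submitters' processing notes credit to MAS5 without a version. The mean without the lowest and highest 2% was 500.003 on all 7 arrays. MAS5 subtracts mismatch signal, so ratios of dim values are noisy. Array medians ranged from 64.4 to 94.5, and the number of arrays limits precision.

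Groups and replicate numbers came from the titles. Of 45101 probe sets 64 controls were left out, and 34945 had 1 gene, 932 several and none was listed for 9160. Symbols were updated by Entrez ID (34741 matched) through a RefSeq table of GRCm38.p6, for names alone. Log2 was taken without a pseudocount, and 23585 probe sets were kept. limma 3.58.1 in R 4.3.3 (eBayes with an intensity trend, two-sided, all 7 arrays, no covariate) was tested on simulated data first.

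Deviations from group means of same-numbered samples correlated across genes with r = 0.71, 0.39 and 0.47 (replicates 1, 4 and 5), against -0.60 to 0.19 for different numbers. The numbers were taken as pairs from this, not from the labels. Deviations within a fraction sum to 0 for each gene, so a positive correlation for 1 number lowers those for other numbers. The range for different numbers is therefore no independent baseline. The blocked fit leaves 2 residual degrees of freedom, so its standard errors rest mostly on spread pooled over genes. Named were all 9 genes, up to 4 genes of smallest p per pathway list, and the 3 nearest profiles of the 2 genes with the smallest p. Diablo, Cycs and Xiap fall outside this rule and were named for their role after their values were seen. The genes and lists were chosen with earlier results of these data known. Alternatives were the block, quantile normalization, other filters, a pseudocount of 16, dim values raised to the array median, no trend, the mean of probe sets, and each array left out.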

Additional observations from a re-analysis of the deposited data

How the results depend on the processing

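None of the alternatives named under the processing turned the sign of Casp9, Bcl2l1, Bcl2l11 or Apaf1, and of these Casp9 alone passed, with the replicate block. The count of the 8 genes that passed was 0, and 1 with the block. The count over all genes, 83, was 1122 with the block, 22 after quantile normalization, 52 without the filter, 43 with the mean of a gene's probe sets and 0 without the intensity trend (limma, 1573 at an unadjusted p under 0.05). It ranged from 0 to 97 with each array left out. In an alternative chosen after seeing the data, the blocked count was 728, 1453 and 909 of 11089 genes without pairs 1, 4 and 5. Of the 8 genes 0, 2 and 0 were called, the 2 being Casp9 (limma, adjusted p = 0.0194) and Bcl2l1, both lower in Nestin-positive cells. The count of probe sets, 0, was 1049 with the block and 0 under every other alternative run. Genes with changes near 0 turned sign, and so did Bak1 and Xiap, each with a log2 change of 0.14 without the block. Log2 changes with the mean of a gene's probe sets were 0.087 for Bcl2, -0.039 for Mcl1, -0.039 for Xiap and -0.11 for Diablo, and with the block 0.035 for Bid and -0.056 for Cycs. With each array left out, Bcl2 ranged from -0.12 to 0.13, Mcl1 from -0.044 to 0.15, Bak1 from -0.036 to 0.24, Bid from -0.12 to 0.035, Bcl2l2 from -0.15 to 0.13, Diablo from -0.046 to 0.054 and Cycs from -0.20 to 0.16. The causes were not tested. Dim probe sets, 10 of the 30, limit what can be said of single transcripts.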
